A study of Drosophila melanogaster with 3 samples.

Results

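The ecdysone-induced effector genes of the Imp and Eip series were examined for binding of Ultraspiracle (USP), a nuclear receptor that pairs with EcR to form the ecdysone receptor. They were 8 genes chosen by name, ImpE1, ImpE2, ImpE3, ImpL1, Eip63E, Eip63F-1, MsrA (formerly Eip71CD) and Cth (formerly Eip55E), of the 17683 named genes in the annotation. Chromatin immunoprecipitation and sequencing (ChIP-seq) was done with an antibody to GFP on whole wandering larvae of the third instar, both sexes together, from a Drosophila melanogaster line that stably carries usp fused at its C terminus to eGFP. All 3 biological replicates belonged to this 1 group. Neither an untagged nor an untreated group was analysed here. What drives the fusion gene, and whether untagged USP remains beside it, are not stated in the labels. A site in these lists can come from any tissue of the larva, and neither expression nor tissue markers were measured.

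The steroid 20-hydroxyecdysone enters cells and binds the EcR and USP pair, which acts at once on a small set of regulator genes, and on effector genes both directly and through those regulators. The Imp genes were found as RNAs on membrane-bound polysomes of imaginal discs, the larval precursors of adult structures, that ecdysone induces, with E for early and L for late induction. ImpE1, ImpE2 and ImpE3 belong to the early class and ImpL1 to the late one. The Eip genes were found as ecdysone-induced proteins or transcripts, and MsrA, then known as Eip28/29, was among the first genes in which ecdysone response elements were mapped in cultured fly cells. The response element is a palindrome of hexamers related to AGGTCA that face each other across a single base.

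In the list of peaks that the authors passed through a threshold on reproducibility (IDR, the irreproducible discovery rate), 7 of the 8 genes had a summit in the gene body or up to 1000 bp upstream, and ImpL1 had none. The same held for 4990 of 13945 protein-coding genes (35.8%). The 7 genes held 25 of the 11195 summits. The strongest were those of ImpE3 at rank 646, ImpE2 at rank 1124 and Eip63E at rank 1910, where rank 1 is the peak of highest signal, the authors' own score per peak. No test of the count was made, since there is a single group and the genes were chosen with earlier results of these data known.

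Sequences under the strongest summit of 6 genes, and under a weaker summit of Eip63E, are shown because they bear on how close these sites come to the palindrome. Each is a short stretch centred on the summit and reads along the gene's strand, from the RefSeq copy of release 6 (dm6 coordinates). In the first 4, capitals mark the palindrome match with the fewest mismatches.
ImpE2, rank 1124, chr3L:3512777-3512877, minus strand: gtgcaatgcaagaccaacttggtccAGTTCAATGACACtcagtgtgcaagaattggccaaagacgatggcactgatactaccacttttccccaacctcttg
Eip63E, rank 1910, chr3L:3547146-3547246, plus strand: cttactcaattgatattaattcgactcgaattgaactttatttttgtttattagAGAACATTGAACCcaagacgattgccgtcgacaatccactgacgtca
Eip63E, rank 8721, chr3L:3550575-3550675, plus strand: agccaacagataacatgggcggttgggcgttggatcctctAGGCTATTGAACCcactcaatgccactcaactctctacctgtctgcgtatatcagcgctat
Eip63F-1, rank 4728, chr3L:3931021-3931121, minus strand: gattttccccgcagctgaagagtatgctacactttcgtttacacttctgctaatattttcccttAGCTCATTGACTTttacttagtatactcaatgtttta
In ImpE3 and MsrA, capitals mark GAGAG or its reverse complement, and ImpE1 has no such match.
ImpE3, rank 646, chr3R:8029857-8029957, minus strand: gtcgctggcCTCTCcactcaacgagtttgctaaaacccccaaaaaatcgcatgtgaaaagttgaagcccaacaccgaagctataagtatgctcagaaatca
MsrA, rank 4895, chr3L:15510839-15510939, plus strand: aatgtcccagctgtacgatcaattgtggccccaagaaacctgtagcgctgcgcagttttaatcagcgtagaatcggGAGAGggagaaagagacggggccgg
ImpE1, rank 10368, chr3L:8372209-8372309, plus strand: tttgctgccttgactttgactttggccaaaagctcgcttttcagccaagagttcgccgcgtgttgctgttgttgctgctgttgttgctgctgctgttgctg

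The palindrome, with the degenerate letters of the ecdysone response element consensus, had no exact match within 100 bp of any of the 25 summits, against 50 of all 11195 summits (0.447%). At ImpE2 the capitals differ from the consensus at 1 base, and the centre of the match lies 19 bp from the summit. At the strongest summit of Eip63E the match has 2 mismatches and is centred 10 bp from the summit. The strongest summit of Eip63F-1 has a match with 2 mismatches at 20 bp, and the weaker Eip63E summit at rank 8721 has one with 2 mismatches at 4 bp. Matches with up to 1 mismatch lay at 1 of 25 summits (4%) against 3.74% of all summits, and with up to 2 mismatches at 4 of 25 (16%) against 15.9%. By this count, within 100 bp, the summits of the effector genes were close to the whole list. A match with up to 2 mismatches centred within 20 bp lay at 4 of 25 summits (16%), against 674 of all 11195 (6.02%). That distance is also the distance of the farthest of the 4 matches, and the difference was not tested. At the strongest summit of ImpE3 the best match had 3 mismatches, at ImpE1 4 and at MsrA 4. Matches with up to 2 mismatches were commoner under stronger peaks: 37.7% of the strongest 1000 summits had one, against 21.1% of the strongest 5597.

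**Figure D1:**
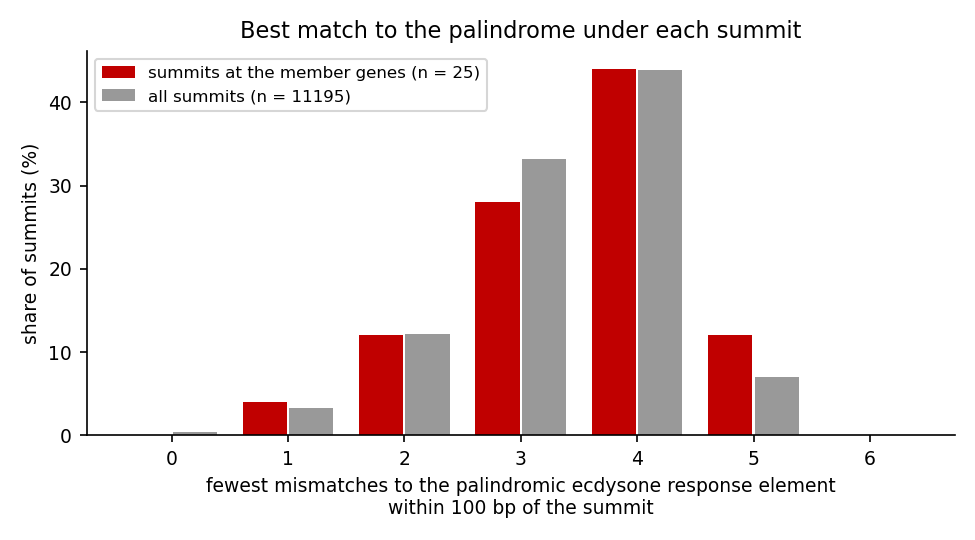
Share of summits (vertical axis, %) by the fewest mismatches to the palindromic ecdysone response element within 100 bp of the summit (horizontal axis), for the 25 summits at the effector genes (red) and all 11195 summits (grey). The bars of the effector genes and of all summits stand at 12% and 12.2% at 2 mismatches and at 44% and 43.9% at 4. They stand farther apart at 3, with 28% and 33.2%, and at 5, with 12% and 6.98%. No summit of the effector genes has 0 mismatches.

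Over the whole windows of the 8 genes, 155 kb in all, 6 matches with up to 1 mismatch were found, or 3.87 per 100 kb, against 2.66 per 100 kb over the chromosome arms. Only that of ImpE2 lay within 100 bp of an IDR-thresholded summit. Of the other 5, 4 lay in Eip63E, the nearest 192 bp from a summit, and 1 in Eip63F-1, 8393 bp from one. Direct repeats of the hexamer with 1 to 5 bases between were not found at the 25 summits, and lay at between 0.0447% and 0.268% of all summits. All motifs were searched on both strands within 100 bp. GGTCA, the core of a single hexamer, lay at 3 of 25 summits (12%) against 24.6% of all. GAGAG lay at 11 (44%) against 34.5%, and the window of the Eip63E summit at rank 5898 held 9 matches. CACACAC lay at 1 summit (4%) against 14.2%, and CACGTG at 1 (4%), that of Cth, against 3.06%. These matches are descriptions of letters within the windows. GGTCA is part of the hexamer in the palindrome and the repeats only where the third base is G, and the consensus searched also allows T there.

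ImpE3 held the strongest site of the set. The gene lies on 3R from 8028453 to 8029546, on the minus strand. It overlaps the annotated gene CG2747, and its 5′ end is 865 bp from that of the divergent gene CG10903. Its strongest summit, at 8029907 and 361 bp upstream, had a signal of 1405 in replicate 1, 1049 in replicate 2 and 1387 in replicate 3, at ranks 489, 596 and 788 of 30000. The signal is not scaled between libraries, so ranks are compared and not signals. All 3 replicates thus placed it among their 1000 strongest peaks, with a mean rank of 624 ± 152 (SD, n = 3). The second summit, at 8030108 and 201 bp farther upstream, lay in the same interval, from 8029366 to 8030963, at rank 3491 in the IDR-thresholded list. Its ranks were 4793, 5057 and 9671 in replicates 1, 2 and 3, so replicate 3 placed it well below the others. This second summit is nearer to the start of CG10903 (303 bp) than to that of ImpE3, and both summits also fall within the windows of CG10903 and CG2747. To which gene they belong cannot be told from positions.

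ImpE2, whose product is secreted by imaginal discs, lies on 3L from 3510974 to 3512681 on the minus strand. It had 1 summit, at 3512827 and 146 bp upstream of its only annotated start. The signal there was 713 in replicate 1, 821 in replicate 2 and 1074 in replicate 3. The ranks were 1397, 871 and 1156, a mean of 1141 ± 263 (SD, n = 3), and the position varied by at most 38 bp between the replicates and the IDR-thresholded list. Among the 4990 protein-coding genes with a summit, 84.3% had a weaker best peak than ImpE2, and 91.0% a weaker one than ImpE3.

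ImpE2 and Eip63E stand back to back, with 3070 bp between their 5′ ends, and the summit of ImpE2 is not the only one there. A second summit lay between them at 3514300, at position -1619 from the start of ImpE2 and -1451 from that of Eip63E, with rank 1029. It is outside the 1000 bp window of both genes and so is not among the 25 summits, although its rank is better than that of the ImpE2 summit.

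ImpE1 encodes a membrane protein with repeats related to those of the LDL receptor. It lies on 3L from 8372405 to 8391171 on the plus strand and had 1 summit, at 8372259 and 146 bp upstream, with a rank of 10368 near the end of the list. In replicate 1 the strongest summit of the gene had a signal of 123 and rank 11451, in replicate 2 it had 120 and rank 9741, and in replicate 3 it had 155 and rank 11624. Only replicate 2 thus placed a summit of ImpE1 among its 11195 strongest. In replicate 1 the strongest summit lay at position -254 and a weaker one, at rank 16347, at -55, on either side of the summit in the IDR-thresholded list. Of the genes with a summit, 5.47% had a weaker best peak than ImpE1.

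ImpL1, on 3L from 13382765 to 13383999 on the plus strand, had no summit in the IDR-thresholded list, in the pooled list of 30000, or in the full lists of replicates 1 and 3. Replicate 2 held 1 summit at position -154 with a signal of 43.7 at rank 19688. The nearest summit of the IDR-thresholded list to its start was 18481 bp away. Read depth is unknown from these files, so the precision behind this absence from the lists cannot be given.

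**Figure D2:**
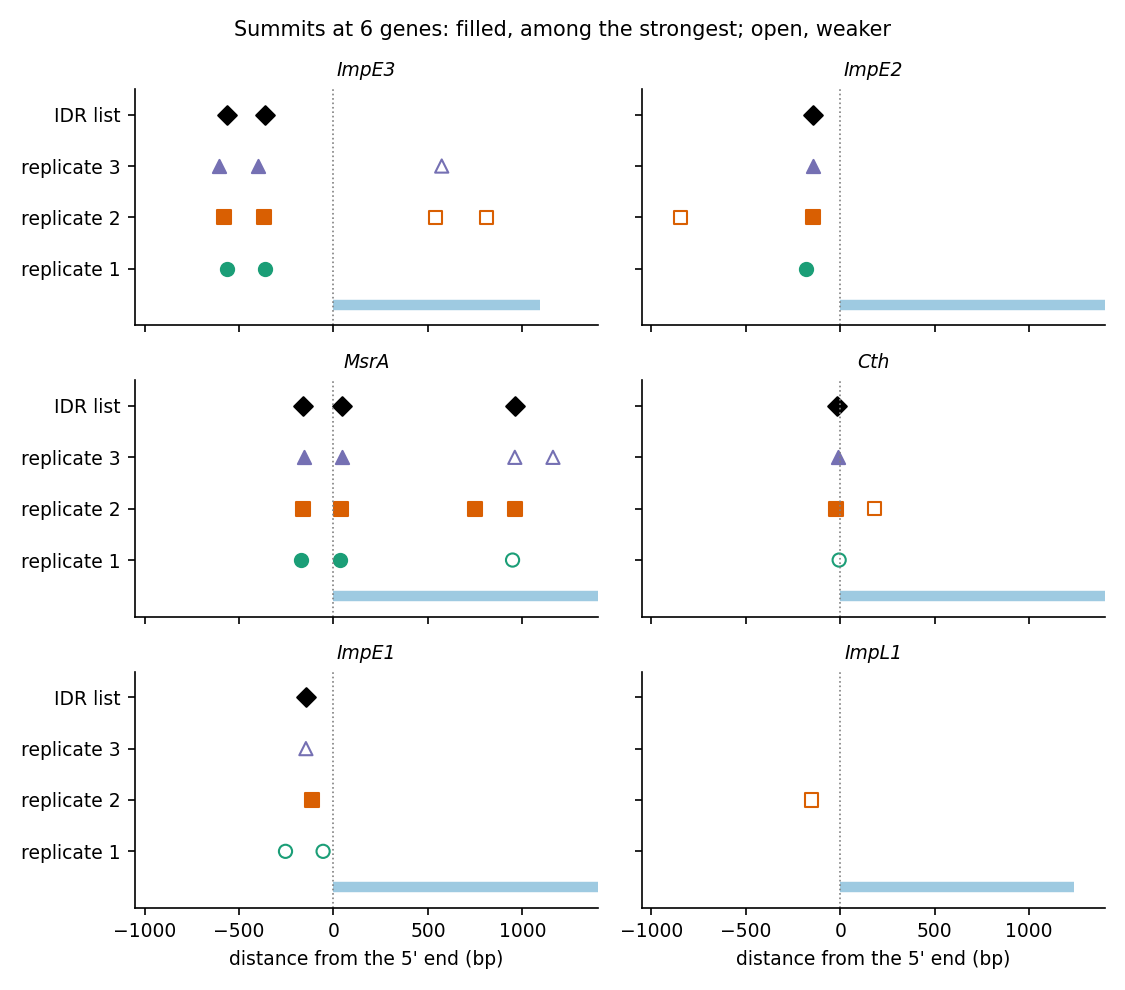
Position of every summit relative to the 5′ end of 6 genes (horizontal axis, bp along the gene's strand, dotted line at 0), with a row each for replicates 1, 2 and 3 and the IDR-thresholded list. Filled symbols are among the 11195 strongest of their list, open ones are weaker, and the blue bar is the gene body, cut at the right edge of the panel. The strongest summits of ImpE3 and ImpE2 are filled in all 3 replicates, those of Cth and ImpE1 are open in replicate 1, and ImpL1 has a single open symbol.

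Eip63E, a cyclin-dependent kinase gene of the PFTAIRE type, was the longest of the set, on 3L from 3515751 to 3610521 on the plus strand, with 14 transcripts from 4 start sites. It held 11 summits in the IDR-thresholded list (9.33 ± 0.577 in the replicates' own lists, SD, n = 3). The strongest was intronic, at 3547196 and 31445 bp into the gene, 1403 bp beyond the last start site. Its signal was 595, 420 and 781 and its rank 1836, 2288 and 1836 in replicates 1, 2 and 3. The next, also intronic, lay at 21354 bp with rank 3899, and its ranks in the replicates were 5159, 3236 and 3998. The other 9 had ranks from 5898 to 10815.

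The first start site of Eip63E had a summit 73 bp downstream at rank 7808, and the second, 27829 bp into the gene, had one 95 bp downstream at rank 7369. The third and the fourth start sites, at 29567 and 30042 bp, had none within 500 bp in the IDR-thresholded list. In the full pooled list a weak summit at rank 22083 lay 67 bp downstream of the fourth. All 11 summits lay in the first 51537 bp of a gene of 94771 bp, and the full lists of the pooled data and the 3 replicates held none beyond 51581 bp. The summit at 40805 bp lies 257 bp from the start of the noncoding gene lncRNA:CR45820 within Eip63E and cannot be assigned to 1 of the pair.

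Of the 11 summits of Eip63E, 5 had a counterpart within 100 bp among the 11195 strongest of all 3 replicates, as did the 3 summits of ImpE2 and ImpE3. In replicate 2 a single summit at 2359 bp, rank 4675, stood in place of the pair at 2252 and 2456 bp. The summit at 28800 bp had rank 7331 in replicate 1 and 9411 in replicate 3, but 15704 in replicate 2. Among the 698 protein-coding genes of the longest length class, from 28644 bp upward, 61.0% had a summit, the median number was 2, and 86.0% had fewer than the 11 of Eip63E.

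Eip63F-1 encodes a calcium-binding protein with EF hands. It lies on 3L from 3909973 to 3935617 on the minus strand, with 4 transcripts that each have their own start site. It held 6 summits in the IDR-thresholded list (7 ± 2, SD, n = 3), with ranks from 4728 to 9746. The strongest, at 3931071 and 4546 bp into the gene, is intronic and lies 1908 bp from the nearest start site. Its signal was 279, 167 and 437 and its rank 4971, 7024 and 3943 in replicates 1, 2 and 3. In replicate 2 the strongest summit was another, 1115 bp into the gene at rank 4925. The summit nearest to the first start site, 928 bp into the gene at rank 5614, lies 29 bp from the start of the antisense gene asRNA:Eig63F-2 and cannot be assigned to 1 of the pair. The third start site, at 6454 bp, had a summit 221 bp upstream at rank 8522 and one 456 bp downstream at rank 5514. The second, at 1980 bp, had none within 500 bp.

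The fourth start site of Eip63F-1, at 10015 bp, had a summit 22 bp upstream in the pooled list at rank 11281, just past the end of the IDR-thresholded list. It stood at rank 12319, 12099 and 11188 in replicates 1, 2 and 3, so only replicate 3 had it among its strongest 11195. Of the 6 summits, 5 were held by all 3 replicates, and the exception, at 5402 bp, had rank 14414 in replicate 1. No list held a summit beyond 11613 bp of the 25645 bp of the gene. In the length class of Eip63F-1 and ImpE1, 59.5% of 697 genes had a summit, and 81.8% had fewer than 6.

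**Figure D3:**
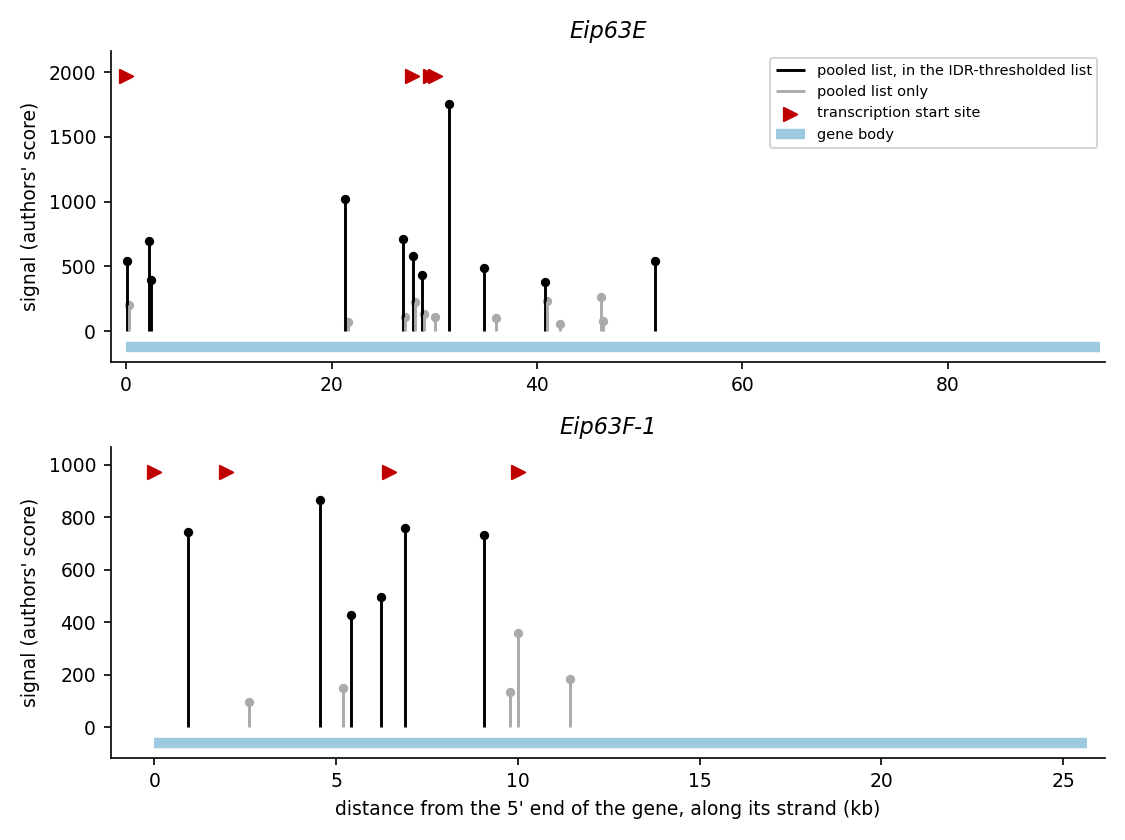
Signal of each summit in the pooled list (vertical axis, the authors' score) by distance from the 5′ end (horizontal axis, kb along the gene's strand) for Eip63E (top) and Eip63F-1 (bottom). Black stems are in the IDR-thresholded list, grey stems only in the pooled list, red arrows are start sites and the blue bar is the gene body. The stem at 31445 bp stands above all others in Eip63E, and in both genes the part farthest from the 5′ end holds none.

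MsrA encodes methionine sulfoxide reductase, which repairs oxidised methionine. It lies on 3L from 15511052 to 15513202 on the plus strand, with 3 start sites, and held 3 summits although it is only 2151 bp long. In its length class 98.6% of genes had fewer, and 33.8% had any. The strongest was at 15510889, 163 bp upstream, with a signal of 270 in replicate 1, 261 in replicate 2 and 334 in replicate 3. Its ranks of 5157, 4255 and 5452 gave a mean of 4955 ± 624 (SD, n = 3). In the IDR-thresholded list its rank was 4895, near the median best rank there of 4359.5 over all protein-coding genes with a summit. This summit also falls in the body of gdl, the neighbouring gene on the same strand, and cannot be assigned to 1 of the pair.

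The other summits of MsrA lay 44 bp downstream of the first start site, at rank 7647, and 963 bp into the gene, at rank 11035. The second was held by all 3 replicates, at ranks 10395, 6383 and 7850. The third lies 126 bp from the third start site, and its ranks of 11828, 11065 and 11378 in replicates 1, 2 and 3 straddle the length of the IDR-thresholded list. The first pair of summits of MsrA were 207 bp apart in a single interval, a pair in Eip63E 204 bp and those of ImpE3 201 bp. In the whole list, 1558 pairs of neighbouring summits lay within 250 bp, with a shortest gap of 199 bp and a median of 203 bp.

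Cth encodes cystathionine gamma-lyase, which releases cysteine in the transsulfuration pathway. It lies on 2R from 18627918 to 18629395 on the plus strand and had 1 summit, at 18627899, 19 bp upstream of its start. The signal was 110, 140 and 184 and the rank 12508, 8384 and 10063 in replicates 1, 2 and 3. Replicate 1 thus left it outside its 11195 strongest peaks, although the position varied by at most 13 bp. Of the genes with a summit, 7.31% had a weaker best peak.

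**Figure D4:**
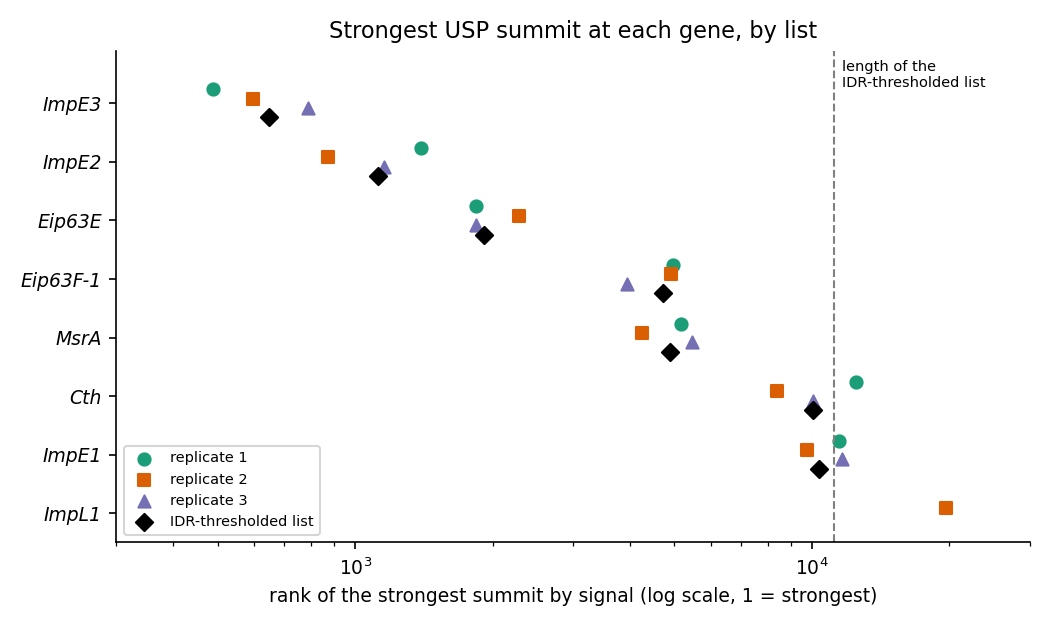
Rank by signal of the strongest summit at each gene (horizontal axis, log scale, 1 is strongest) in the lists of replicates 1, 2 and 3 and in the IDR-thresholded list. The dashed line is the length of that list, 11195. ImpE3, ImpE2 and Eip63E keep their order in all lists, whereas Cth and ImpE1 cross the line, and ImpL1 appears only in replicate 2.

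The order of the genes by best rank was ImpE3, ImpE2, Eip63E, Eip63F-1, MsrA, Cth and ImpE1. ImpE3, ImpE2 and Eip63E each ranked apart from their neighbours in all 3 replicates, without overlap. Eip63F-1 and MsrA overlapped, with ranks from 3943 to 4971 and from 4255 to 5452, and so did Cth and ImpE1, with 8384 to 12508 and 9741 to 11624. These are best ranks per gene, not always of the same summit. For Eip63F-1 the rank of 4925 in replicate 2 is of another summit, and the summit strongest in the IDR-thresholded list had rank 7024 there. In the replicates' own lists of 11195 peaks, 5, 7 and 6 of the 8 genes had a summit in replicates 1, 2 and 3, against 35.9%, 33.8% and 36.9% of all protein-coding genes. ImpE1 and Cth account for the difference. Replicate 1, which per the file headers had no part in the pooled and IDR-thresholded lists, was the one with 5. In the full lists of 30000 the counts were 7, 8 and 7 against 50.2%, 48.2% and 51.1%, and 7 in the pooled list against 49.2%.

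Over all 25 summits, 15 (60%) had a counterpart within 100 bp among the 11195 strongest of every replicate, against 71.2% of the whole list. In the full lists 22 of 25 (88%) did, against 91.6%. Taken singly, the 11195 strongest of replicates 1, 2 and 3 held a counterpart of 19, 21 and 22 of the 25 (76%, 84% and 88%). The shares of the whole list were 87.4%, 84.6% and 90.3%. Only replicates 2 and 3 went into the IDR-thresholded list. The median rank of the 25 was 7369, against 5598 over the whole list, and 8 of 25 (32%) lay in its stronger part, ranks 1 to 5597. At Eip63E 2 of 11 summits (18.2%) lay in the stronger part, with a median rank of 7778. At Eip63F-1 2 of 6 did (33.3%), but the median rank of 5660 was near that of the whole list. Of the 8 summits at the other genes 4 did (50%), as in the whole list, with a median rank of 6271. These were the 1 of ImpE2, the 2 of ImpE3 and 1 of the 3 of MsrA, while those of Cth and ImpE1 did not. Of the 25, 14 (56%) lay within 500 bp of a start site of any gene, against 43.1% of all summits. Among them, the summits at 8030108 (ImpE3), 3556556 (Eip63E) and 3934689 (Eip63F-1) were that near only to the start of another gene. The other 11 were intronic. The 25 come from gene windows alone, whereas 9.72% of all summits were intergenic, so the 2 shares are of unlike sets. At ImpE1, ImpE2, ImpE3, MsrA and Cth all 8 summits lay within 500 bp of a start site, the second of ImpE3 only of that of CG10903. The intronic ones were all in Eip63E and Eip63F-1. Where a summit was found again within 100 bp, its position in a replicate differed by a median of 8 bp, against 11 bp in the whole list. Across the 22 summits found in all full lists, Spearman's rho of the rank was 0.63 between replicates 1 and 2, 0.758 between 1 and 3 and 0.628 between 2 and 3, a description across summits that share their libraries, 8 of them in Eip63E and 6 in Eip63F-1.

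Among 6308 protein-coding genes with a summit in all 3 full lists, the gene closest to each effector gene was sought by the Euclidean distance of the log10 best ranks over the 3 replicates. For ImpE3 it was mlt (ranks 522, 640 and 664), for ImpE2 CG7872 (1329, 882 and 1117) and for Eip63E M7BP (1730, 2356 and 1912), at distances of 0.0854, 0.0269 and 0.0338. MED30 was closest to Eip63F-1, shg to MsrA, HBS1 to Cth and Pcl to ImpE1, at distances from 0.00948 to 0.0275.

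Other genes of the same pathways were set beside these 8. Each count of genes with a summit below stands against 35.8% of all protein-coding genes. Of 12 other effector genes, 9 had a summit (9 ± 0 in the replicates' own lists, SD, n = 3). Hsp27, a small heat shock gene induced by ecdysone, led with rank 225, followed by ImpL2, a secreted insulin-binding protein, at 799 with 7 summits and the fat body gene Fbp1 at 1161. Ldh, formerly ImpL3, had 1 summit at rank 2205, while Eig71Ea, Eig71Eb and Sgs3 had none. The count includes asRNA:Eig63F-2, whose only summit is the one shared with Eip63F-1. Thus of the 6 Imp genes, ImpL1 alone had no summit. In its length class 26.0% of protein-coding genes had one, against 29.0% in that of ImpE2 and 23.1% in that of ImpE3.

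The median best rank was 4728 for the 7 effector genes with a summit, against 78 for the 17 regulators of the ecdysone response, all of which had one. The 8 effector genes held 25 summits and the 17 regulators 302, of which 82 lay at Eip75B. The median per gene was 1.5 against 11. Neither these counts nor the best ranks were scaled for gene length. Among the regulators vri, Eip74EF and Eip75B had ranks 3, 4 and 10, and the strongest effector site, at ImpE3, ranked below the best site of 13 of these regulators. Of 11 genes of imaginal disc eversion, the folding out of the discs at metamorphosis, all had a summit. After br, which is in both lists, at rank 13 came zip, the myosin II heavy chain, at 91 and sqh, its regulatory light chain, at 280. The integrin gene if was the weakest, at 9705.

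Of 10 other genes of methionine, transsulfuration and glutathione metabolism, 8 had a summit (7.67 ± 0.577 in the replicates, SD, n = 3), with a median best rank of 5927. The thioredoxin gene Trx-2 led at 1438, followed by Gclc, the catalytic subunit of glutamate-cysteine ligase, at 1715 and Mtap at 4145. SelR, which repairs the other stereoisomer of oxidised methionine, had a summit at 10384, and Cbs, the enzyme ahead of Cth in transsulfuration, and Gnmt had none. Of 9 other cyclin-dependent kinase genes and CycY, whose cyclin is the partner of Eip63E in flies, 3 of 10 had a summit (30%). This is near the 35.8% of all protein-coding genes. They were Cdk4 at 2269, Cdk12 at 3142 and Pitslre at 5138, and Cdk1, Cdk2, Cdk5, Cdk7, Cdk8, Cdk9 and CycY had none. Of 8 genes listed as calmodulin-like 4 had one (50%), led by Cam at 2890 and TpnC73F at 4358. The others were CanB2 and asRNA:Eig63F-2, which this annotation gives as noncoding, and Acam, CanB, Cbp53E and azot had none. The only summit of asRNA:Eig63F-2 is again the one shared with Eip63F-1, and a noncoding gene is outside the share of protein-coding genes.

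**Figure D5:**
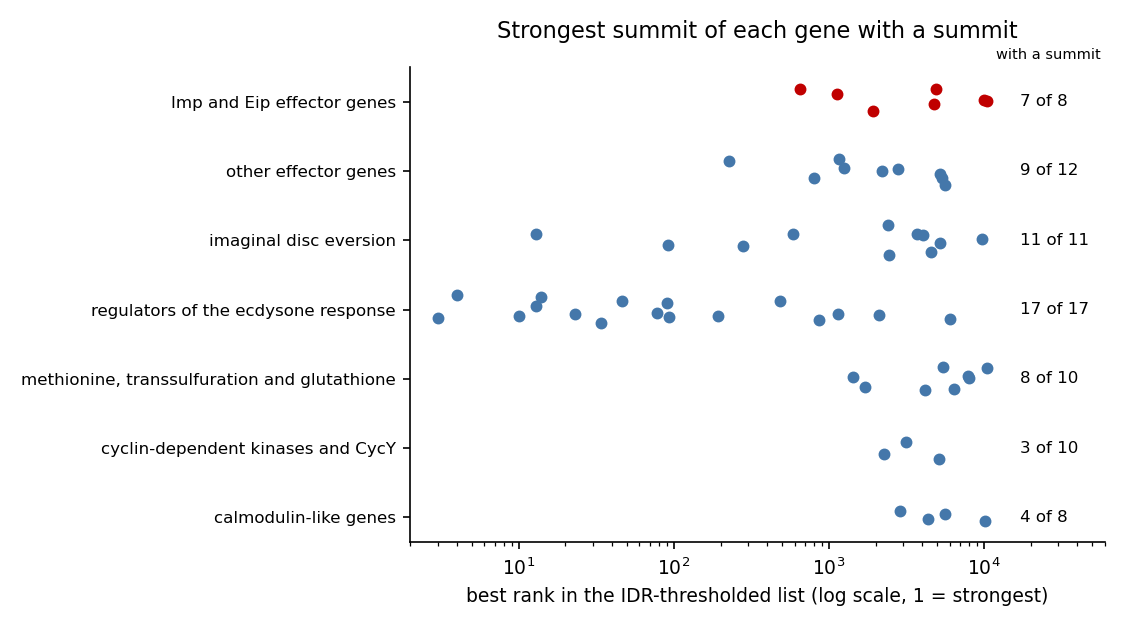
Best rank in the IDR-thresholded list (horizontal axis, log scale, 1 is strongest) of each gene with a summit, for the 8 effector genes (red) and 6 other lists (blue), with the number of genes with a summit at the right. Points are spread vertically only for legibility. The effector genes lie between 646 and 10368, while 11 of the 17 regulators lie at rank 93 or better.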

How the data were processed

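USP binding was measured by ChIP-seq in 3 replicates of 1 group. Per the file headers, the authors called peaks on dm6 alignments against a control alignment, once per replicate and once on the pooled data of replicates 2 and 3, and deposited the IDR-thresholded list made from these. For the aligner, caller and IDR threshold, names and values were not given in the sources used here. In the deposited lists the signal is the authors' score of a peak, unscaled between libraries and served to rank peaks within a list. The 4 other lists held 30000 peaks each, and the 11195 IDR-thresholded peaks were the strongest of the pooled list. Replicate lists were cut to that length. Depth is unknown from these files, so no counting interval is given. Between 1.34% and 1.86% of summits lay at the same base in 2 replicates, so no pair of lists was a copy of another.

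A summit is the interval's start plus the deposited offset, here 1-based. Gene models came from Ensembl release 115 (BDGP6.54) and sequence from RefSeq. Every summit fell within its chromosome, and 30540 of 30593 start codons (99.8%) read ATG. Of 65 symbols in the other lists 3 were found through synonyms, namely Eip63F-2 (asRNA:Eig63F-2), Trx-2 (Trx2) and Trxr-1 (Trxr1). Length classes were 20 equal bins of protein-coding genes. Assignment and motif search were tested on simulated data with planted answers. Python 3.11.15, pandas 2.3.3 and NumPy 2.4.6 were used.

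The members and lists were chosen with earlier results of these data known. All 8 members are named, and of each other list the 3 genes of best rank and the genes with none, with others (Ldh, SelR, if, CanB2) named after their values were seen. SDs are over the 3 replicates, each a biological sample of its own per the labels.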

Additional observations from a re-analysis of the deposited data

How the results depend on the processing

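The count of 7 genes with a summit was the same with 500, 2000 or 5000 bp upstream. The shares of protein-coding genes were 32.9%, 39.3% and 48.1%. With the wider windows the count could not rise, because ImpL1, the only gene without a summit, has its nearest one 18481 bp from its start. With ranks 1 to 5597 alone the count was 5, against 21.9%. With the gene body alone it was 3 (Eip63E, Eip63F-1 and MsrA), because the summits of the others lie upstream, against 23.2% of protein-coding genes. The number of summits, 25, was 39 with 5000 bp upstream and 8 in the strongest part of the list, and between 19 and 28 under the other windows, the replicates' own lists and 1 summit per interval. Summits shared by every replicate, 15, were 15 to 19 when 1 replicate was left out and 15 to 22 under other distances or the full lists. Those within a promoter of any gene, 14, were 10 within 250 bp and 17 within 1000 bp of a start site. Of 65 other pathway genes 49 had a summit, against 35.8% of protein-coding genes. Under the alternatives 41 to 51 did, against 21.9% to 48.1%. The causes of these differences were not tested beyond the change of window or list. With 200 bp on each side GGTCA lay at 7 summits, GAGAG at 19, CACACAC at 2 and CACGTG at 2. With 50 bp GAGAG lay at 7 and CACGTG at 0. The palindrome lay at 0 summits with no mismatch, 1 with 1 mismatch and 4 with 2, the last chosen after seeing the data. Of 42 alternatives for the best ranks 33 moved by less than the SD of the replicates. These alternatives were the replicates' own ranks and their means with 1 replicate left out. The SD comes from the same ranks, so this count cannot show how stable the best ranks are. No paired analysis was possible because the study has 1 group.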
